A study of Arabidopsis thaliana with 3 samples.

Results

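The transcripts described here gave a moderate signal in water-treated Arabidopsis thaliana plants and a signal near that of control probe sets for absent bacterial transcripts in plants flooded with the herbicide 2,4-D. They were chosen by their signals on all 3 arrays of the study. A probe set, the group of short probes that reads 1 transcript on the array, was selected on a water signal from 40 to below 100 together with a signal below 14 on both 2,4-D arrays. Of 22746 probe sets that are not manufacturer's controls, 5149 lay in the water range and 26 of these were below 14 on both treated arrays. Organelle-encoded genes and the symbols of several large gene families were left out by rule, which removed the expansin gene EXPA18 and the xyloglucan-modifying gene XTH33 (10.7 and 13 with 2,4-D, against 41.2 with water) and left 24 probe sets. The exclusions work through gene names, so they could not be applied to the 14 of these that the naming table does not list. Since the measured values made the choice, the difference between 2,4-D and water in these 24 is a description and carries no test.

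The plants were whole Col-0 plants, the usual laboratory accession, at growth stage 1.04 with 4 rosette leaves, raised for 14 days on MS medium with 1.5% sucrose and 1% phytagel under a photoperiod of 16 hours. The labels also list 48 hours of darkness at 4 C for all of them. The 2,4-D group held 2 arrays of plants flooded with 1 mM 2,4-D, brought to neutral pH in water, and the water group held 1 array of plants flooded with distilled water, both for 1 hour. Each sample, listed as total RNA with biotin as the label, was read on an Affymetrix ATH1 array of its own. The deposited values are MAS5 signals on a linear scale. The labels do not say whether the 2,4-D samples came from separate plants or plates, so the spread between them may be technical, and the water array has no replicate at all.

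2,4-Dichlorophenoxyacetic acid is a synthetic auxin, a compound that acts as the plant hormone does but is broken down more slowly. Auxin binds TIR1/AFB receptors, which leads to the degradation of the Aux/IAA repressors and lets auxin response factors change transcription within minutes. A transcript can be lost within an hour when its RNA decays quickly and is not replaced. In an extract of whole plants, fewer cells of a type and less RNA per cell cannot be told apart.

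How near to background the treated signals lay was judged against 27 probe sets for Bacillus transcripts (dap, lys, phe, thr and trp) that were dim on every array. The brightest of them read 10.7 on 2,4-D replicate 1, 8.37 on 2,4-D replicate 2 and 13.9 on the water array. The limit of 14 therefore lies at the dim controls' level on the water array and above it on both 2,4-D arrays. Of the 24 probe sets, 8 were at or below their array's brightest dim control on both 2,4-D arrays, 12 on 1 of the arrays and 4 on neither. The rule itself places all 24 above the brightest dim control on the water array. Treated signals at background in the strict sense were thus read for 8 of them, and the other 16 kept a signal above the dim controls on at least 1 treated array.

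**Figure D1:**
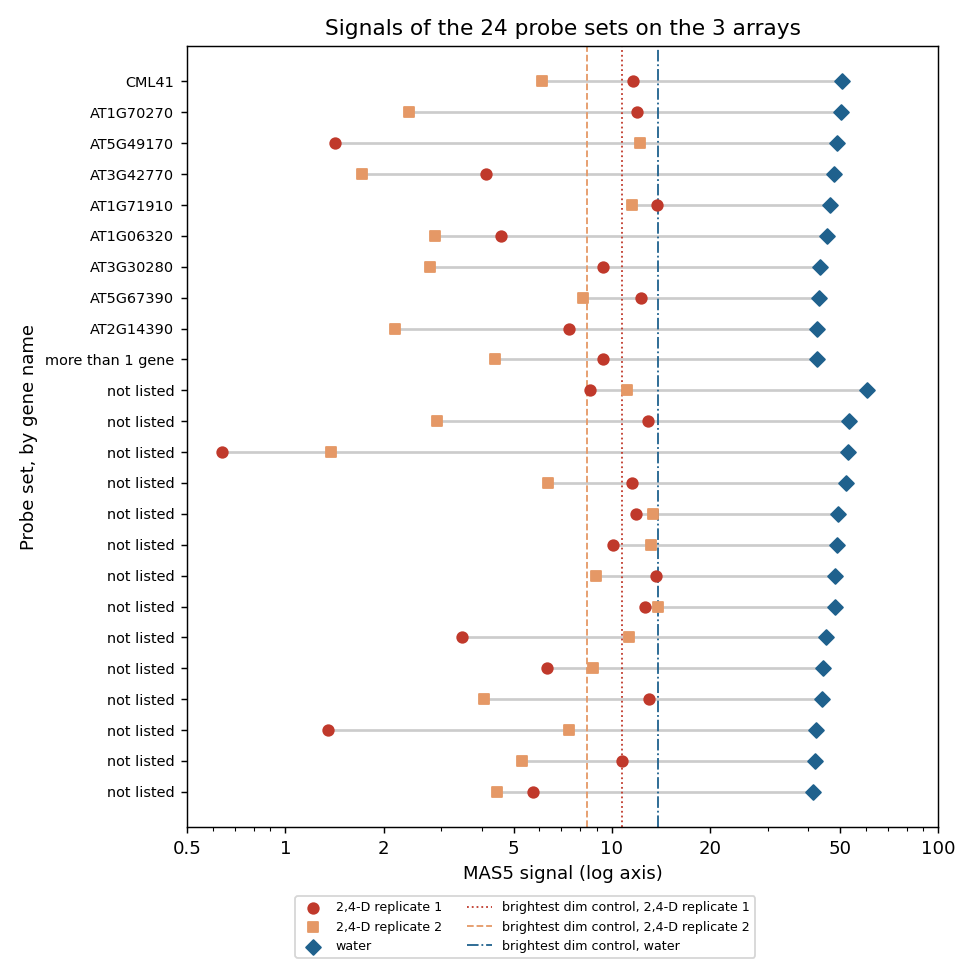
Each row is 1 of the 24 probe sets, with its MAS5 signal on a log axis on 2,4-D replicate 1 (circles), 2,4-D replicate 2 (squares) and the water array (diamonds). Vertical lines mark the brightest dim control of each array, at 10.7, 8.37 and 13.9. The diamonds form a narrow band from 41.4 to 60.4, while the treated signals spread from 0.642 to 13.9.

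The naming table gave 9 of the 24 probe sets a single gene, listed several genes for 1 and did not list 14. In the whole water range 55.8% of the probe sets had a single gene, against 37.5% of the selected ones. All 9 named genes are annotated as protein coding. CML41 alone carries a descriptive symbol, and the other 8 are known in the tables by locus only, so no function is given for them. None of the 9 had a second probe set among those named.

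CML41 (AT3G50770) encodes a calmodulin-like protein, a calcium sensor. In Arabidopsis the protein is known from plasmodesmata, the channels between plant cells, where it takes part in the deposition of callose after perception of bacterial flagellin. Its signal was 11.6 and 6.11 with 2,4-D, against 50.6 with water. Replicate 1 lay slightly above its dim controls and replicate 2 below them. The water signal was 4.37 times the higher of the treated signals. The limits of the selection alone fix a wide gap, so that this ratio describes the gene and supports nothing.

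Of the other named genes, 4 were at or below the brightest dim control on both treated arrays, so that only a lower bound can be given for their difference from water. The bound sets the water signal against the geometric mean of the controls' limits. AT3G42770 had 4.12 and 1.71 with 2,4-D, against 47.9 with water, at least 5.06-fold lower. AT1G06320 had 4.59 and 2.88 with 2,4-D, against 45.7 with water, at least 4.82-fold lower. Both genes were below the dim controls' limits on both treated arrays, where signals have no order.

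AT3G30280 had 9.41 and 2.78 with 2,4-D, against 43.4 with water, at least 4.57-fold lower. AT2G14390 had 7.4 and 2.17 with 2,4-D, against 42.4 with water, at least 4.48-fold lower.

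The remaining 4 genes kept a signal above the dim controls on 1 or both treated arrays. AT1G70270 had 12 and 2.4 with 2,4-D, against 50.4 with water. AT5G49170 had 1.42 and 12.2 with 2,4-D, against 49 with water. In AT1G70270 only replicate 1, and in AT5G49170 only replicate 2, lay above the dim controls.

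AT5G67390 had 12.3 and 8.18 with 2,4-D, against 43.2 with water. AT1G71910 had 13.7 and 11.6 with 2,4-D, against 46.6 with water. It was the only named gene above the dim controls on both treated arrays, and with a ratio of 3.39 between the water signal and the higher treated signal it had the lowest such ratio of the 16 probe sets with a treated signal above the dim controls. It also left the selection when the arrays were scaled to 1 median (14.1 and 11.9 with 2,4-D, 44.1 with water) or quantile normalized (14.9 and 12.8 with 2,4-D, 44.7 with water). The other 8 named genes met the limits under both scalings.

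The 14 unlisted probe sets ranged from 0.642 to 13.6 on 2,4-D replicate 1 and from 1.38 to 13.9 on 2,4-D replicate 2, against 41.4 to 60.4 with water. An unlisted probe set below the dim controls on both treated arrays had 0.642 and 1.38 with 2,4-D, against 52.8 with water, at least 5.57-fold lower. The one with the highest water signal had 8.58 and 11.1 with 2,4-D, against 60.4 with water. The probe set shared by more than 1 gene had 9.42 and 4.4 with 2,4-D, against 42.6 with water.

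Over all 24, the median signal was 9.75 on 2,4-D replicate 1 and 6.25 on 2,4-D replicate 2, against 47.2 with water. For the 8 probe sets at or below the dim controls on both treated arrays, the water signal was 4.36 to 5.57 times the controls' limits, which is a lower bound. For the other 16 it was 3.39 to 5.44 times the higher treated signal. In the 4 probe sets above the dim controls on both treated arrays, the replicates differed by 1.09 to 1.52-fold. The dim controls' limits and the ceiling of the selection bound this difference, so it does not show how well the replicates match. Across the 24, the median difference between the treated arrays was 1.97-fold, and 12 differed by more than 2-fold. In most of the 24 a treated signal lay at or below the dim controls, where signals have no order. Over the whole water range the median difference between the treated arrays was 1.17-fold, and 2.14% differed by more than 2-fold.

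The selected probe sets lay at the lower end of the water range. With the ceiling fixed at 14, a brighter water signal needs a larger fall to qualify. The rule itself thus favours this end, and the shares below are no result about the transcripts. Between water signals of 40 and 50, 20 of 1248 probe sets were below 14 on both treated arrays, which is 1.6%. Between 50 and 60 there were 5 of 1065, and between 60 and 70 there was 1 of 875. Above 70 the range held 1961 probe sets and none met the limit. The same was true of the 6468 probe sets with a water signal of 100 or more, for which the ceiling asks the largest fall.

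**Figure D2:**
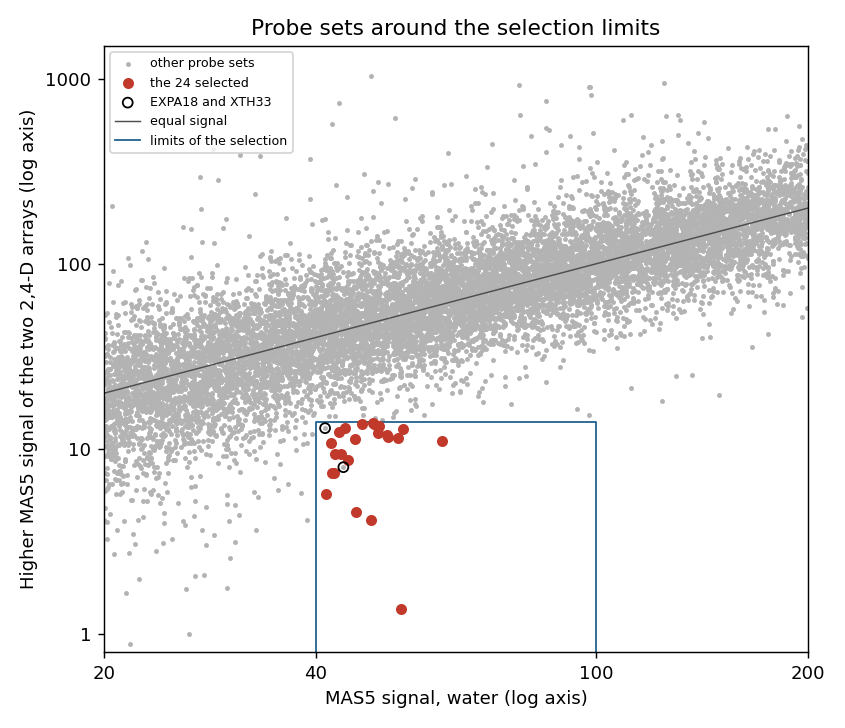
Each point is a probe set with its water signal on the horizontal axis and the higher of its 2 treated signals on the vertical axis, both MAS5 signals on log axes. The selected 24 (red) and the left-out EXPA18 and XTH33 (open circles) lie in the left part of the box that marks the limits, with water signals up to 60.4.

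Most probe sets in the same water range changed by less than 2-fold. Across the 5149 in the water range the median log2 change was -0.09 on 2,4-D replicate 1 and -0.09 on 2,4-D replicate 2. Scaling the arrays to 1 median added 0.11 and 0.12 to the log2 changes on these arrays and brought both medians to 0.03. On replicates 1 and 2 alike, 236 (4.58%) were lower by 2-fold or more and 166 (3.22%) were higher by as much. Among all 22746 probe sets 8.63% were lower by that size on both, a share that includes many dim ones, and the rule itself places all 24 in that class.

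The same limits were applied between single arrays to show what the replicates allow. With no symbols left out, 51 probe sets had a water signal in the range and were below 14 on 2,4-D replicate 1, and 70 did so on 2,4-D replicate 2. Their overlap was the 26 given above, 0.505% of the range. In the other direction, 36 probe sets were in the range on 2,4-D replicate 1 and below 14 on the water array, 41 were so on 2,4-D replicate 2, and 21 on both, which is 0.545% of the 3852 in the range on both treated arrays. Between the treated arrays, 14 probe sets were below 14 on replicate 1 and in the range on replicate 2, and 2 were the other way round. By count, lower signals on a single treated array than with water met the limits more often than a difference between the replicates did. Of all probe sets, 31% and 31.3% were below 14 on 2,4-D replicates 1 and 2, against 26.7% on the water array. The fixed limit thus covered more of the array on the treated side, and its part in these counts was not tested. A second water array would be needed to measure the same spread on the water side.

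**Figure D3:**
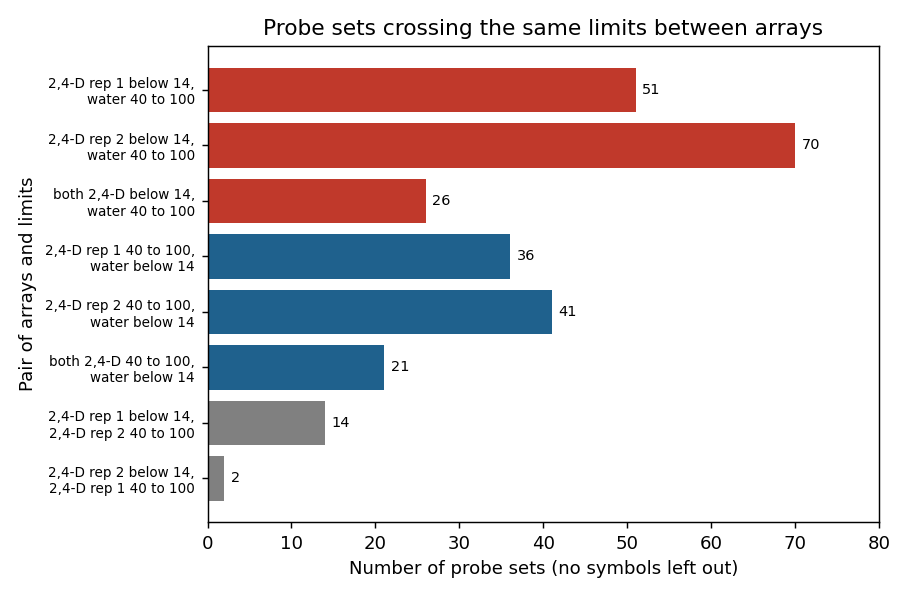
Bars give the number of probe sets that cross the same limits, from 40 to below 100 on 1 array or group and below 14 on the other. Red bars are lower with 2,4-D (51, 70 and 26), blue bars are lower with water (36, 41 and 21), and grey bars compare the 2,4-D arrays with each other (14 and 2).

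The dimmer spiked control transcripts were also lower on the treated arrays. The bacterial bioB, bioC and bioD and the phage cre transcripts are added to the hybridisation mix by the manufacturer's protocol in rising amounts. The 6 bioB probe sets read 83.6 to 119 on 2,4-D replicate 1 and 39 to 142 on 2,4-D replicate 2, against 181 to 383 on the water array. All 6 were lower on both treated arrays, but they are readings of 1 spiked transcript and not replicates. All 4 bioC probe sets were also lower on both treated arrays, with geometric means of 303 and 215 with 2,4-D, against 621 with water. Geometric means for bioD were 871 and 735 with 2,4-D, against 1061 with water, with 3 of 4 probe sets lower on both treated arrays. The brightest control, cre, was lower on both treated arrays in 2 of 4 probe sets. The part of this difference between arrays in the lower signals of the 24 transcripts was not tested. The median log2 change of -0.09 in the water range does not measure that part. With the extremes left out, the mean signal was 100.01 on every array. The medians over all probe sets still differed, at 38.7 and 38.5 with 2,4-D, against 41.9 with water, so the equal mean does not make the arrays equal at low signals. On the water array the bioB probe sets also read above the water range.

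The genes nearest to the limits on the outside show how the choice depends on small differences. Just above the ceiling, AT3G44070 had 14.8 and 11.8 with 2,4-D, against 51.5 with water, and AT3G13030 had 15 and 12.9 with 2,4-D, against 42.7 with water. GH9C1 (AT1G48930), a glycosyl hydrolase gene of the endoglucanase family, had 15.2 and 11.9 with 2,4-D, against 46.7 with water. All of these were above the ceiling on replicate 1 and below it on replicate 2. AT5G50335 missed it by replicate 2 alone, with 5.74 and 15.3 with 2,4-D, against 97.6 with water. The pseudogene AT3G31920 had 15.6 and 11.7 with 2,4-D, against 51.6 with water.

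Just below the water limit of 40 lay the pseudogenes AT2G17910 and AT2G10880, the loci AT4G38760 and AT5G13350, and ATL63. ATL63 (AT5G58580), a RING-finger gene of the ATL family of ubiquitin ligases, had 4.03 and 5.81 with 2,4-D, against 38.1 with water. The other 4 had water signals from 37.5 to 38.8 and treated signals from 1.31 to 12. Inside the limits, AT1G71910 stood nearest to the ceiling and AT2G14390 nearest to the water limit among the named genes.

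CML41 belongs to a gene family of which 6 other members could be named on the array, and these did not share one pattern. Calmodulin-like proteins bind calcium through EF-hand motifs, and several of their genes respond quickly to touch, wounding or pathogens. Standard errors of log2 changes here come from the trend of variance with signal over all tested probe sets, not from each gene's own arrays. CML42 (AT4G20780), known from trichome branching in Arabidopsis, had 98.9 and 57.2 with 2,4-D, against 124 with water. Its log2 change was -0.73 ± 0.25 (SE, n = 2 against 1) with an adjusted p of 0.0237 by limma, against a background in which 10.5% of the 13648 tested probe sets were called lower. The treated arrays disagreed on its size, and the call was lost after scaling to 1 median (adjusted p = 0.0661), without a filter on low signal (adjusted p = 0.173) and without the intensity trend (adjusted p = 0.178), while it held after quantile normalization (adjusted p = 0.0438) and with an offset (adjusted p = 0.0257).

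The other members did not pass or lay below the filter. CML30 had 48.4 and 18.6 with 2,4-D, against 44.4 with water, so that the treated arrays fell on both sides of the water value. CML43 had 24.1 and 21.3 with 2,4-D, against 31.6 with water, and CML38 had 27.4 and 42 with 2,4-D, against 29.2 with water. CML30 (log2 change -0.57 ± 0.40), CML43 (-0.48 ± 0.47) and CML38 (0.22 ± 0.41) were tested and not called.

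CML23 lay below the filter on mean signal, with 24.3 and 18 with 2,4-D, against 30.8 with water. CML37 was also below the filter, with 10.5 and 12 with 2,4-D, against 1.51 with water. Only the signal on replicate 2 was above the dim controls' limit of its array. Among the 7 named members, CML41 was thus the single one that met the limits of the selection.

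**Figure D4:**
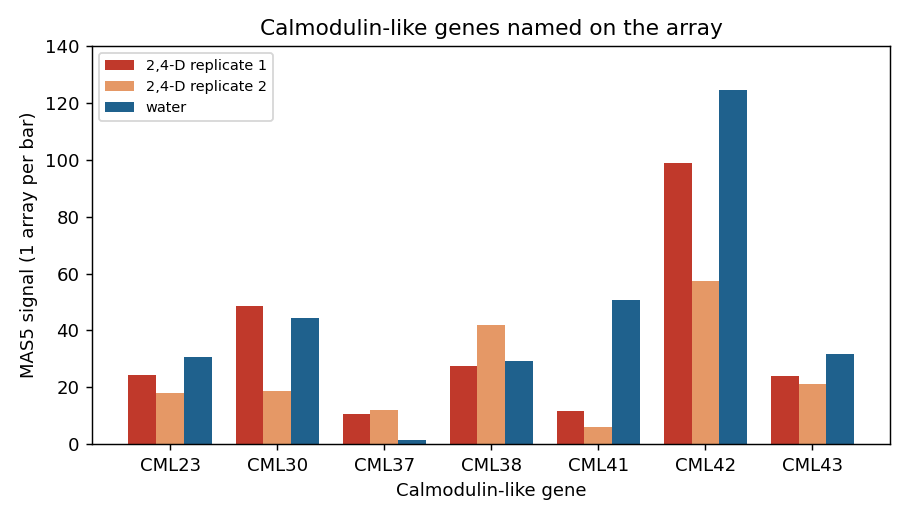
Bars give the MAS5 signal of 7 calmodulin-like genes on 2,4-D replicate 1, 2,4-D replicate 2 and the water array, 1 array per bar. CML41 is low on both treated arrays (11.6 and 6.11, against 50.6 with water), CML42 is lower on both by unequal amounts, and CML30 and CML38 differ between the treated arrays.

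The neighbours of the named genes along the chromosome were taken in the order of the RefSeq gene table. None with a named probe set was lower by 2-fold on both treated arrays, though some were too dim with water to show a fall. Of the 18 adjoining protein-coding genes, 7 had a named probe set. AT3G50780, next to CML41, had 111 and 100.02 with 2,4-D, against 94.1 with water. AT1G71900, next to AT1G71910, had 59.3 and 53.6 with 2,4-D, against 41.3 with water. AT1G70280, next to AT1G70270, had 115 and 137 with 2,4-D, against 152 with water. The first 2 were higher on both treated arrays than with water, and the last was lower on both by less than 2-fold. AT5G49180, next to AT5G49170, read 11 and 10.4 with 2,4-D, against 11.5 with water. Its water signal was below the dim controls' limit of 13.9, so a fall could not be read.

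Both neighbours of AT3G42770 were dim as well. AT3G42725 read 11.6 and 8.24 with 2,4-D, against 20 with water, and AT3G42780 read 10.5 and 1.42 with 2,4-D, against 13.9 with water. The MADS-box gene AGL79, next to AT3G30280, was at or below the dim controls' limits on all arrays with both of its probe sets.

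Lists of cell type markers were drawn up for the whole plant, 86 names in 9 lists. They matched 76 genes of the RefSeq table, of which 8 had a named probe set. Root hair genes were the one list with members near the selected probe sets. Of its 24 genes, 3 had a named probe set. These were all lower by 2-fold or more on replicates 1 and 2, against 8.63% of all probe sets and 4.58% of those in the water range. Their mean signals were below the filter of the test. Besides GH9C1, these were the root-hair expansin genes EXPA18, with 7.98 and 3.55 with 2,4-D, against 43.8 with water, and EXPA7, with 15.1 and 15.3 with 2,4-D, against 37 with water. The summed signal of the 3 was 38.2 and 30.8 with 2,4-D, against 127 with water. EXPA18 met the limits of the selection before it was left out by symbol, so its lower signal was fixed by the rule. The list was written with the expansin values known, so its count is no independent evidence. Whether any of the 24 transcripts comes from root hairs was not tested.

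Among the markers of the leaf epidermis, SPCH, FAMA and TRY were above the dim controls on all arrays and MUTE was not. SPCH, which starts the stomatal lineage, had 26.5 and 30.3 with 2,4-D, against 34.2 with water (log2 change -0.27 ± 0.42), and FAMA, which acts in guard cell formation, had 54.6 and 44.6 with 2,4-D, against 64.2 with water (-0.38 ± 0.31). The trichome regulator TRY had 17.7 and 42.2 with 2,4-D, against 43.7 with water (-0.68 ± 0.41), with the treated arrays far apart. None of these was called by limma. The shoot meristem gene CLV3 was above the dim controls' limit on replicate 2 only. The lists for root endodermis, root tip and cap, xylem, phloem, and flower and pollen had no named probe set.

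The fit across all probe sets reached few of the 24. Only 3 passed the filter on mean signal over the 3 arrays, all of them unlisted, and 3 were called lower, beside the 10.5% of all tested probe sets. The filter acts on the mean signal, which low values on 2 of 3 arrays pull down, and it removed 21 of the 24. Without it, 6 of 24 were called lower, among them CML41, AT3G42770 and AT1G06320, while 3.12% of the 22746 probe sets were. These calls use the same 3 arrays as the selection and add nothing to it.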

How the data were processed

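The authors deposited MAS5 intensity values on a linear scale for 3 ATH1 arrays, per the submitters' processing notes. For the MAS5 version, the scaling target and the build, nothing was given in the sources used here. The mean of the middle 96% of probe sets was 100.01 on every array. The table held 22810 probe sets, 64 of them controls. Names came from the platform's annotation table and the RefSeq table of TAIR10.1. Of 22746 probe sets, 13513 had 1 gene, 503 several and 8730 none listed. No probe or promoter sequences were used here.

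Signals were taken to log2 and compared with limma 3.58.1 (lmFit, eBayes with trend, R 4.3.3) over 13648 probe sets with a mean signal at or above the 40th percentile (24.8), with Benjamini-Hochberg adjustment at 0.05. The only residual degree of freedom comes from the 2,4-D pair, and the lone water array is assumed to vary as they do. In the main fit the prior degrees of freedom were infinite, so every standard error is that of the intensity trend. The spread between a gene's own 2,4-D arrays does not enter it. The script was tested on simulated data. Every simulated array took its noise from the spread of the 2,4-D pair. The simulation therefore cannot check the assumption about the water array. The number of arrays limits the precision. The members, lists and alternatives were chosen with earlier results of these data known. Named genes were all members with 1 gene, the 5 nearest to each limit on both sides, and family mates of named members; the planned role groups came down to CML41.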

Additional observations from a re-analysis of the deposited data

How the results depend on the processing

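The number of selected probe sets, 24, was 20 after scaling to 1 median and 16 after quantile normalization, and all of these were among the 24. With 1 treated array left out, the count ranged from 49 (without 2,4-D replicate 2) to 68 (without 2,4-D replicate 1). It was 8 with the ceiling of each array at its brightest dim control, 9 with a ceiling of 10, 71 with a ceiling of 20 and 6 with a water signal from 50. Probe sets lower by 2-fold or more on replicates 1 and 2 numbered 429 among those tested, 266 after scaling to 1 median, 204 with an offset of 16, 1964 without a filter, and 706 to 768 with 1 treated array left out. The limma calls of 1434 lower and 1472 higher became 710 and 964 without a filter and 839 and 834 without the intensity trend. Scaling to 1 median gave 990 lower and 2032 higher. Of the selected probe sets, 3 of 3 tested were called lower, 1 of 1 tested after scaling to 1 median and 6 of 24 without a filter. Fewer or more probe sets tested is part of each filter's construction, and other causes were not tested. No test was run with 1 treated array left out, since no residual degree of freedom remains. No paired analysis was possible because the water group has 1 array. Signals at or below the dim controls have no order.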
